A study of Homo sapiens with 9 samples.

Results

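Transcript levels of 35 genes of glycolysis, lactate export and the hypoxia response were followed in Ramos cells given the GSK-3 inhibitor CHIR99021. The genes were chosen by name, as glycolytic enzymes, glucose and lactate transporters and targets of the hypoxia-inducible factors (HIF). All 35 were found among the 60234 gene identifiers of the count table, and all 35 had enough reads to be among the 15847 genes tested. Ramos is an established EBV-negative Burkitt lymphoma line of human B cells in which an immunoglobulin locus drives MYC. The cells were harvested untreated (0 h) or after 3 h or 6 h with 3 µM CHIR99021. Each group had 3 biological replicates, which gave 9 libraries of bulk RNA. All groups were the same line with no other allele or agent named. No untreated culture of 3 h or 6 h was analysed here, so the effects of the inhibitor and of time in culture cannot be told apart. The series concerns the stabilisation of MYC and apoptosis in B cell lymphoma.

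Glycolysis splits glucose into pyruvate. A preparatory phase spends ATP on phosphorylating and cleaving the sugar, and a payoff phase returns ATP and reduces NAD+. Lactate dehydrogenase converts pyruvate to lactate and restores NAD+, and monocarboxylate transporters carry lactate out of the cell. Many of these genes are textbook targets of both MYC and HIF. MYC binds the E-box CACGTG with its partner MAX. HIF is a pair of an oxygen-regulated alpha subunit and the stable subunit ARNT, and its core site is ACGTG or the variant GCGTG. Prolyl hydroxylases mark the alpha subunit for destruction while oxygen is present, and among their own genes EGLN1 and EGLN3 are HIF targets. Proliferating B cells and Burkitt lymphoma are known for high glycolysis.

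The stretches upstream of a listed start site show how the 2 kinds of core overlap in these genes, since each CACGTG holds ACGTG on both strands. Examples from RefSeq (GRCh38.p14) follow, each the 250 bases before a start listed in the RefSeq table, 5′ to 3′ on the gene's strand. They were taken to span the response at 6 h, with LDHA and BNIP3 among the genes that rose, and PFKFB4 and ALDOC among those that fell. Capitals mark every CACGTG and every core, whether ACGTG or the variant GCGTG, on either strand.
LDHA (chr11:18394313-18394562, plus strand): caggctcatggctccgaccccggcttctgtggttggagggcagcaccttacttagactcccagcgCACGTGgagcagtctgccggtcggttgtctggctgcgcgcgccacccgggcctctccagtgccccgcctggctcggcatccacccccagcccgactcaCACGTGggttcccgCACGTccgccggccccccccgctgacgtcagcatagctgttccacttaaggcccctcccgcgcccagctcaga
BNIP3 (chr10:131981924-131982173, minus strand): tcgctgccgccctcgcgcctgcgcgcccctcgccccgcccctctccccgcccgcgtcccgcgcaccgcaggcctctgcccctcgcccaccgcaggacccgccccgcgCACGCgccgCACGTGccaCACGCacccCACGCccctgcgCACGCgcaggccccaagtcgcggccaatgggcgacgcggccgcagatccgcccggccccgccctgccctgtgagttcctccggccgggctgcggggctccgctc
PFKFB4 (chr3:48556804-48557053, minus strand): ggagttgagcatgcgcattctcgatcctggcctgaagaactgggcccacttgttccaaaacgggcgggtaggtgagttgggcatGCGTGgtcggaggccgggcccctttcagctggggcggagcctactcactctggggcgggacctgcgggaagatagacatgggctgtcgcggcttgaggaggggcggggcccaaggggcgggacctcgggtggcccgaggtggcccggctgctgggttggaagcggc
ALDOC (chr17:28576896-28577145, minus strand): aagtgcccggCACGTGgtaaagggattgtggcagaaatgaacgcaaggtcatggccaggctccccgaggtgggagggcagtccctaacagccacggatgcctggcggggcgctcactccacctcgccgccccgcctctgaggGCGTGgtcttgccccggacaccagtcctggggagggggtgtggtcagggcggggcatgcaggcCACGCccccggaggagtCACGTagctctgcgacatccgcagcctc

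Core matches were counted on both strands, so each CACGTG gives 2 of them. LDHA, which rose, held 5 core matches and 2 CACGTG in the window printed, and its other window held 1 core match and 0 CACGTG. BNIP3 held 6 core matches and 1 CACGTG. PFKFB4, which fell, held 1 core match and 0 CACGTG, but ALDOC, which also fell, held 5 core matches and 1 CACGTG. Upstream windows were found for 31 members, in 59 windows because some genes have several starts, and SLC2A3, SLC16A1, VEGFA and BNIP3L had none. The RefSeq starts often lie inside the gene as GENCODE v29 annotates it. Of the 59 windows, 45 lay wholly and 11 partly within the annotated span, the PFKFB4 and ALDOC windows wholly, LDHA for 175 of its 250 bases and BNIP3 for 90. Which start Ramos cells use was not measured. ACGTG lay in 22 of the 59 windows (37.3%), against 18.5% of all 35116 windows of this length, and CACGTG in 8 (13.6%) against 6.34%. GCGTG lay in 19 windows (32.2%), against 32.2% of all windows. By gene, CACGTG was found in 7 of the 18 members with a window that were higher at 6 h and in 1 of the 11 that were lower. Either core was found in 13 of those 18 and in 10 of those 11. No share by gene was computed over all genes, and a gene with more windows has more places for a match. The counts by gene therefore cannot be set beside the shares by window. With library size alone 12 members were higher at 6 h, against 19 with TMM factors. Whether MYC or HIF acts on these genes here was not tested. A match is a run of letters and not a measured binding site.

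Levels are CPM, read counts relative to a library size adjusted by TMM factors, printed library by library or as a mean ± SD (n = 3). A log2 fold change is given with its standard error (SE), and a gene rose or fell when the adjusted p of edgeR's quasi-likelihood test was under 0.05. Reads in genes numbered 46359911 to 52880876 per library, so that a count of 0 would allow a level of up to 0.0567 to 0.0647 CPM. B cell markers summed to 2459 to 2493 CPM at 0 h, 2416 to 2520 at 3 h and 2516 to 2664 at 6 h, with 6 of 6 genes tested. The sum hides single markers that moved in both directions between 0 h and 6 h, with mean levels of MS4A1 at 268 and 520 CPM and CD79A at 509 and 751, beside PAX5 at 409 and 255 and CD22 at 763 and 476. Markers of other cell types were at or near 0 in every group: T and NK cell genes summed to 0.0196 to 0.179 CPM (2 of 6 at 0), myeloid genes to 0.0516 to 0.208 (1 of 6 at 0) and epithelial and fibroblast genes to 0 to 0.0358 (3 of 6 at 0). In bulk RNA, fewer cells with a transcript and less of it per cell cannot be told apart. Untreated replicate 3 stood apart from the other untreated libraries. It was the highest of the 3 for 17 of the 35 members, GAPDH, ALDOA and ENO1 among them, and the lowest for 15, among them HK2, PDK1 and HIF1A. At 6 h, replicate 10 was the lowest of the 3 for 23 members.

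The set as a whole moved in both directions. At 3 h 17 of the 35 genes rose, 14 fell and 4 did not pass the test, where 66.3% of all genes tested passed (32.8% higher and 33.5% lower). At 6 h 19 rose, 14 fell and 2 did not pass, where 70.8% of all genes passed (35.7% higher and 35% lower). Median log2 fold changes of the members were 0.05 at 3 h and 0.18 at 6 h, beside -0.01 and 0.02 over all genes tested. The 3 h and 6 h comparisons share the untreated libraries. Between 3 h and 6 h, 14 members rose, 10 fell and 11 did not pass (43.4% of all genes passed), and the median was 0.11 beside 0.01. Any difference among the 3 times was called for 34 of the 35, beside 77.7% of all genes, and the exception was PDK3 (adjusted p = 0.289). These shares were not matched for abundance, and most members are far above the level needed for a test. The libraries of the 2 groups did not overlap for 30 members at 3 h (70.2% of all genes), 31 at 6 h (71.7%) and 29 between 3 h and 6 h (55.2%). Calls of at least 2-fold numbered 5 at 3 h (15.5% of all genes), 8 at 6 h (19.4%) and 2 between 3 h and 6 h (3.84%, PFKFB4 and BNIP3L). The counts of rises depend on the scaling of the libraries. With upper-quartile factors 11 members rose at 3 h and 16 at 6 h, and with library size alone 7 and 12. With TMM scaling 12 of 17 enzymes of the main pathway rose at 6 h (8 with library size alone). HIF1A, EGLN1 and EGLN3 fell at 6 h, and of the 7 members grouped as other HIF targets 4 rose and 3 fell.

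**Figure D1:**
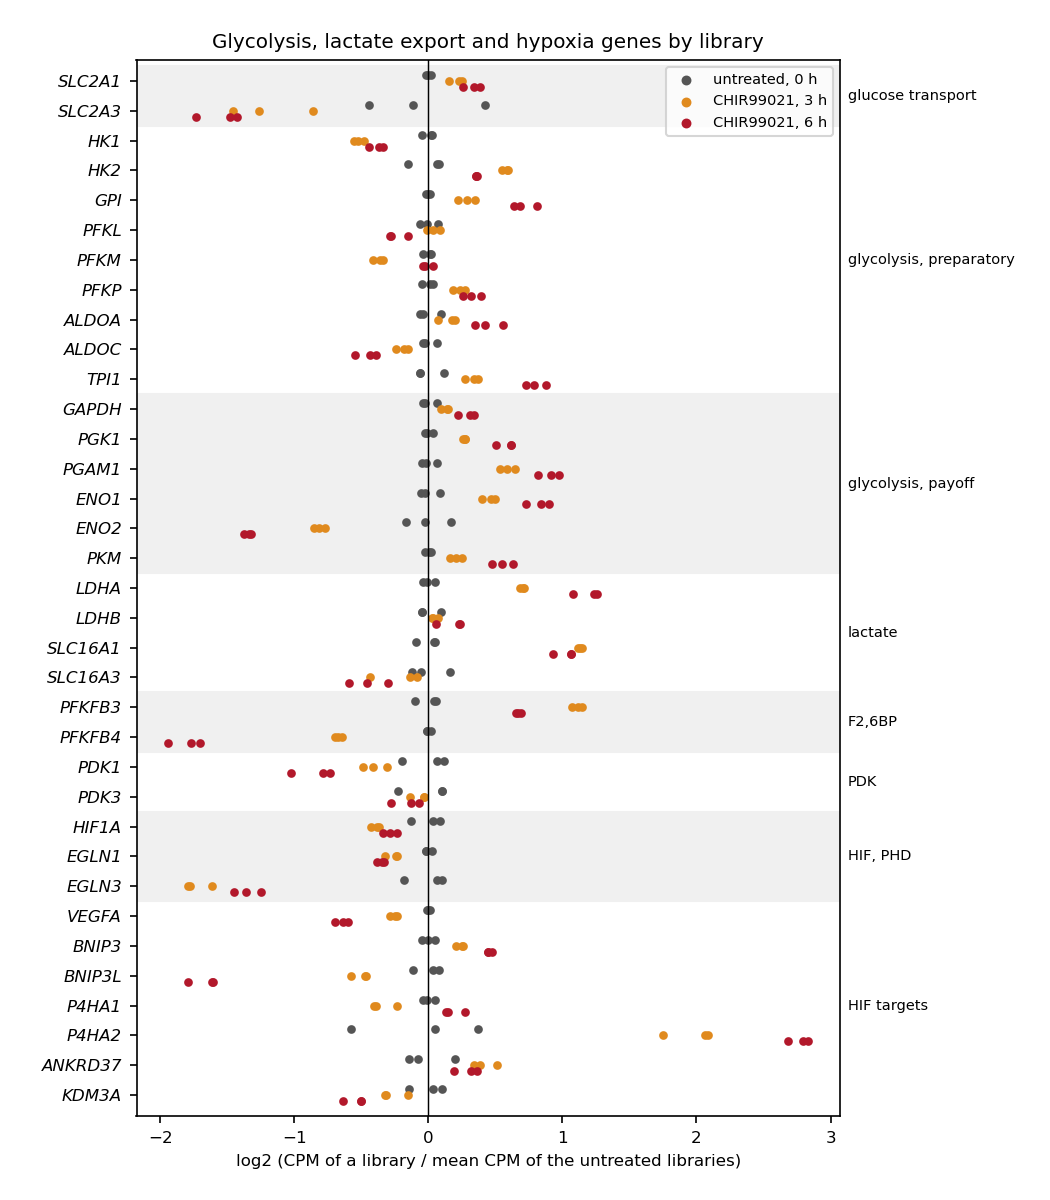
Level of each gene in each library, as the log2 ratio of its CPM to the mean CPM of the untreated libraries (x axis), with genes in rows grouped by role and 1 point per library. LDHA, SLC16A1 and PFKFB3 lie to the right of the untreated libraries at both times, and EGLN3, PFKFB4 and BNIP3L lie to the left.

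Glucose transporters differed in direction. SLC2A1 encodes GLUT1, the widespread basal glucose carrier, and held almost all of the pair's reads per kilobase (99.6% ± 0.117 at 0 h, SD, n = 3). Its level was 134, 135 and 137 CPM at 0 h, 161, 151 and 159 at 3 h and 177, 162 and 172 at 6 h. All treated libraries lay above all untreated ones, and the 3 h and 6 h libraries did not overlap either, although their difference did not pass the test (log2 fold change 0.12 ± 0.05, SE; adjusted p = 0.0667). It passed without untreated replicate 3 (adjusted p = 0.0240) or without 6 h replicate 10 (0.0277). Against 0 h SLC2A1 rose 1.16-fold at 3 h and 1.26-fold at 6 h (log2 0.33 ± 0.05, adjusted p = 3.23e-05). Neither rise passed under library size alone (log2 0.01 at 3 h, adjusted p = 0.835, and 0.09 at 6 h, 0.0575), and the 3 h rise did not pass with upper-quartile factors (0.06, adjusted p = 0.248). SLC2A3 encodes GLUT3, a high-affinity carrier, and was barely transcribed, with 29, 38 and 51 reads at 0 h, 12, 15 and 19 at 3 h and 10, 12 and 11 at 6 h. It fell 2.24-fold at 3 h and 2.88-fold at 6 h (log2 -1.53 ± 0.30, adjusted p = 0.000357), with no overlap between treated and untreated libraries. Pseudogenes of SLC2A3 held reads equal to 22.8% of its own, and with them added the 6 h change was -1.15.

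Hexokinase traps glucose in the cell as glucose phosphate, and its isozymes moved in opposite directions. HK1, the housekeeping form, fell from 108 ± 2.93 CPM to 75.4 ± 2.07 at 3 h, a 1.43-fold fall (log2 -0.52 ± 0.05, adjusted p = 4.27e-07), and stood at 82.8 ± 2.99 at 6 h. Its rise between 3 h and 6 h (adjusted p = 0.0378) was lost when untreated replicate 2, any 3 h library or 6 h replicate 9 or 11 was left out (0.0529 to 0.123). HK2, the inducible form bound to mitochondria, measured 157, 159 and 135 CPM at 0 h, 226, 221 and 227 at 3 h and 193, 193 and 192 at 6 h. The 3 groups did not overlap, and the highest level was at 3 h. HK2 rose 1.49-fold at 3 h (log2 0.58 ± 0.06, adjusted p = 7.88e-07) and then fell 1.17-fold between 3 h and 6 h (adjusted p = 0.00662). Its 6 h rise against 0 h did not pass under library size alone (log2 0.12, adjusted p = 0.0633).

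The next steps of the preparatory phase showed 1 isozyme rising beside others that did not. GPI, which isomerises the sugar phosphate, rose from 303 ± 2.99 CPM to 370 ± 16.4 and 496 ± 30.8 (1.64-fold at 6 h). Of the phosphofructokinases, which catalyse the committed step, PFKP, the platelet form, rose 1.17-fold at 3 h and 1.25-fold at 6 h, but neither rise passed under library size alone (log2 0.03 and 0.09), nor the 3 h rise with upper-quartile factors (0.08). PFKM, the muscle form, fell 1.29-fold at 3 h to 84.0 ± 2.24 CPM and was back at 108 ± 3.08 at 6 h, beside 109 ± 2.46 untreated. The 6 h value did not differ from the untreated one by the test (log2 -0.01 ± 0.05, adjusted p = 0.88). PFKM overlaps SENP1 on the opposite strand. PFKL, the liver form, was 202 ± 9.39 CPM at 0 h and 207 ± 7.14 at 3 h, a difference that did not pass and changed sign under other scalings, and it fell 1.18-fold at 6 h. ALDOA, the main aldolase, which cleaves the sugar, rose 1.36-fold at 6 h (adjusted p = 1.93e-05). At 3 h its adjusted p was 0.0484 with overlapping libraries, and the sign turned under upper-quartile scaling (log2 -0.01) and under library size alone (-0.05). The 3 h call was lost when untreated replicate 1 or 2, 3 h replicate 5 or 7 or 6 h replicate 11 was left out (adjusted p = 0.0595 to 0.172). ALDOC, the brain form, fell 1.14-fold and 1.37-fold. It overlaps AC005726.1 on the same strand, which had 2052 reads beside its 15100. TPI1, which interconverts the triose phosphates, rose 1.26-fold and 1.74-fold, and reads equal to 61.7% of its own were counted to 4 of its pseudogenes. With those reads added its log2 changes were 0.33 and 0.81, beside 0.33 and 0.80 without. In all, 5 of the 9 preparatory enzymes rose, 3 fell and 1 did not pass, at 3 h and again at 6 h. Of all genes tested 32.8% rose and 33.5% fell at 3 h, and 35.7% rose and 35% fell at 6 h. With library size alone 1 rose and 4 fell at 3 h, GPI and TPI1 no longer passing (adjusted p = 0.107 and 0.0646), and 3 rose and 4 fell at 6 h.

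In the payoff phase 5 of 6 genes rose and 1 fell in each of the 3 comparisons. Of all genes tested 32.8% rose at 3 h, 35.7% at 6 h and 21.5% between 3 h and 6 h. With upper-quartile factors 3 payoff genes rose at 3 h and 5 at 6 h, and with library size alone 2 and 4. ENO1, the main enolase, rose from 1175 ± 61.7 CPM to 1610 ± 56.4 at 3 h and 2079 ± 123 at 6 h, 1.77-fold in all (log2 0.82 ± 0.06, adjusted p = 1.39e-08). PGAM1, phosphoglycerate mutase, rose from 67.8 ± 2.68 to 102 ± 3.92 and 127 ± 6.76 CPM, 1.87-fold (log2 0.90 ± 0.06). PGK1, which makes the first ATP of the phase, rose 1.2-fold and 1.49-fold, and PKM, pyruvate kinase, 1.15-fold and 1.47-fold. For these 4 genes the 3 groups of libraries did not overlap. The 3 h rises of PGK1 and PKM did not pass under library size alone (log2 0.07 and 0.0032), nor that of PKM with upper-quartile factors (0.05). GAPDH, the oxidising step and a gene often used as a reference, measured 2362, 2342 and 2514 CPM at 0 h, 2650, 2563 and 2657 at 3 h and 3049, 2810 and 2977 at 6 h. Its groups did not overlap either, but the differences were small. GAPDH rose 1.22-fold at 6 h (adjusted p = 0.00011), a rise that did not pass under library size alone (log2 0.05, adjusted p = 0.255). Its 1.09-fold rise at 3 h (adjusted p = 0.038) turned into a fall of log2 -0.03 under upper-quartile scaling and -0.08 under library size alone. That rise did not pass without untreated replicate 1 or 2 or 3 h replicate 5 or 7 (adjusted p = 0.0857 to 0.148). ENO2, the neuronal enolase, was the payoff gene that fell. It measured 1.41, 1.62 and 1.28 CPM at 0 h, 0.815, 0.842 and 0.796 at 3 h and 0.574, 0.569 and 0.554 at 6 h, a 2.54-fold fall (log2 -1.34 ± 0.17, adjusted p = 5.86e-06). The step from 3 h to 6 h (adjusted p = 0.0326) was lost when any of the 6 treated libraries was left out (0.0568 to 0.0827). ENO2 overlaps LRRC23 on the same strand, a gene with 6506 reads beside its 439, so its count is uncertain.

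Over the enzymes of both phases and both lactate dehydrogenases, 11 of 17 genes rose and 4 fell at 3 h, and 12 rose and 4 fell at 6 h. The shares of all genes tested were 32.8% higher and 33.5% lower at 3 h, and 35.7% and 35% at 6 h. With upper-quartile factors 7 rose and 4 fell at 3 h and 11 rose and 5 fell at 6 h, and with library size alone 4 rose and 6 fell at 3 h and 8 rose and 5 fell at 6 h. The median log2 fold change was 0.21 at 3 h and 0.36 at 6 h. Summed, the 17 genes measured 8628 ± 308 CPM at 0 h, 10235 ± 208 at 3 h and 12405 ± 638 at 6 h. As a share of all gene reads, with no scaling factor, they took 0.927%, 0.935% and 1.00% at 0 h, 0.994%, 0.966% and 0.992% at 3 h and 1.19%, 1.13% and 1.17% at 6 h. On that measure the 3 h libraries lay within the untreated range and the 6 h libraries lay above it.

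LDHA and SLC16A1, of lactate production and export, rose by more than any enzyme of the preparatory or payoff phase at either time. LDHA encodes the muscle-type subunit of lactate dehydrogenase, which favours lactate formation. Its level was 629, 641 and 667 CPM at 0 h, 1035, 1060 and 1054 at 3 h and 1517, 1368 and 1542 at 6 h. No group overlapped another, and the level was highest at 6 h. LDHA rose 1.63-fold at 3 h (log2 0.70 ± 0.05, adjusted p = 4.03e-08) and 2.28-fold at 6 h (log2 1.19 ± 0.05, adjusted p = 1.86e-10), and by 0.49 ± 0.05 between 3 h and 6 h. LDHB, the heart-type subunit, was 853 ± 50.9, 881 ± 14.7 and 964 ± 65.7 CPM, with overlap between all groups. It passed at 6 h (1.13-fold, adjusted p = 0.0145), but not with upper-quartile factors (log2 0.03), and its sign turned under library size alone (-0.06). Its 3 h difference did not pass (0.05 ± 0.06). The 6 h call was lost without untreated replicate 1 or 2 or 6 h replicate 9 or 11 (adjusted p = 0.0506 to 0.0643).

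SLC16A1 encodes MCT1, a carrier of lactate and pyruvate. It measured 151, 152 and 138 CPM at 0 h, 319, 326 and 323 at 3 h and 307, 281 and 309 at 6 h. All treated libraries were above all untreated ones, by 2.19-fold at 3 h (log2 1.13 ± 0.05, adjusted p = 5.67e-10) and 2.03-fold at 6 h (log2 1.02 ± 0.05, adjusted p = 1.03e-09). The step from 3 h to 6 h did not pass (log2 -0.11 ± 0.05, adjusted p = 0.112), except without untreated replicate 3 (0.0278). SLC16A3 encodes MCT4, a carrier typical of strongly glycolytic cells. Its level was 10.6 ± 1.13, 9.19 ± 1.17 and 7.81 ± 0.792 CPM. It fell 1.36-fold at 6 h (log2 -0.44 ± 0.11, adjusted p = 0.00248), and the 3 h difference did not pass (-0.21 ± 0.11, adjusted p = 0.0996). SLC16A3 overlaps CSNK1D on the opposite strand, which had 71249 reads beside its 4191, and without a stated strand setting the reads cannot be told apart.

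Basigin (BSG), the chaperone that carries MCT1 to the membrane, rose 1.27-fold at 3 h and 1.51-fold at 6 h, to 257 CPM. BSG belongs to a list of 31 other isoforms of glycolysis and of glucose or lactate transport, of which 16 were tested. At 3 h 6 of the 16 rose and 6 fell, and at 6 h again 6 rose and 6 fell (medians -0.06 and 0.16). Among all genes tested 32.8% rose and 33.5% fell at 3 h, and 35.7% and 35% at 6 h. The ADP-dependent glucokinase ADPGK rose 1.62-fold at 6 h and the intracellular sugar carrier SLC2A8 2.08-fold. BPGM, which makes the haemoglobin ligand bisphosphoglycerate, fell 1.36-fold, and ENO3, the muscle enolase, fell 2.10-fold.

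The bifunctional PFKFB enzymes set the level of the fructose bisphosphate that activates phosphofructokinase, and their genes moved apart. PFKFB3, whose kinase activity prevails, measured 47.1, 47.5 and 42.6 CPM at 0 h, 99.4, 96.1 and 101 at 3 h and 74.1, 72.1 and 72.6 at 6 h. The groups did not overlap, and the 3 h libraries were the highest. PFKFB3 rose 2.16-fold at 3 h (log2 1.11 ± 0.05, adjusted p = 5.18e-10), fell 1.36-fold between 3 h and 6 h (adjusted p = 1.79e-05) and remained 1.59-fold above untreated. PFKFB4 measured 8.75, 8.60 and 8.58 CPM at 0 h, 5.43, 5.34 and 5.53 at 3 h and 2.66, 2.25 and 2.54 at 6 h. It was lower at each time without overlap, 1.59-fold at 3 h and 3.48-fold at 6 h (log2 -1.80 ± 0.09, adjusted p = 3.31e-10). Outside the members, PFKFB2, the heart form, fell 2.26-fold at 6 h, from 93.7 to 41.5 CPM. TIGAR, a phosphatase that lowers the same activator, rose 2.14-fold at 3 h and 1.81-fold at 6 h.

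Pyruvate dehydrogenase kinases keep pyruvate out of the mitochondrial acetyl-CoA route, and none of PDK1, PDK2 and PDK3 rose. PDK1 measured 36.4, 35.1 and 29.3 CPM at 0 h, 25.3, 27.2 and 24.0 at 3 h and 16.5, 20.2 and 19.5 at 6 h. Its groups did not overlap, and it fell 1.32-fold and then 1.79-fold against 0 h (log2 -0.84 ± 0.09 at 6 h, adjusted p = 2.55e-06). PDK3 was 12.3 ± 1.55, 11.7 ± 0.484 and 11.0 ± 0.801 CPM and passed in none of the 3 comparisons. Untreated replicate 3 was low for PDK3, at 10.5 CPM beside 13.2 and 13.1, and without that library PDK3 passed at 3 h (adjusted p = 0.0449) and 6 h (0.00398). It also passed as a fall with upper-quartile factors (0.0469 and 0.00968) and with library size alone (0.0212 and 0.00235). PDK2, outside the members, fell 1.90-fold at 6 h.

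**Figure D2:**
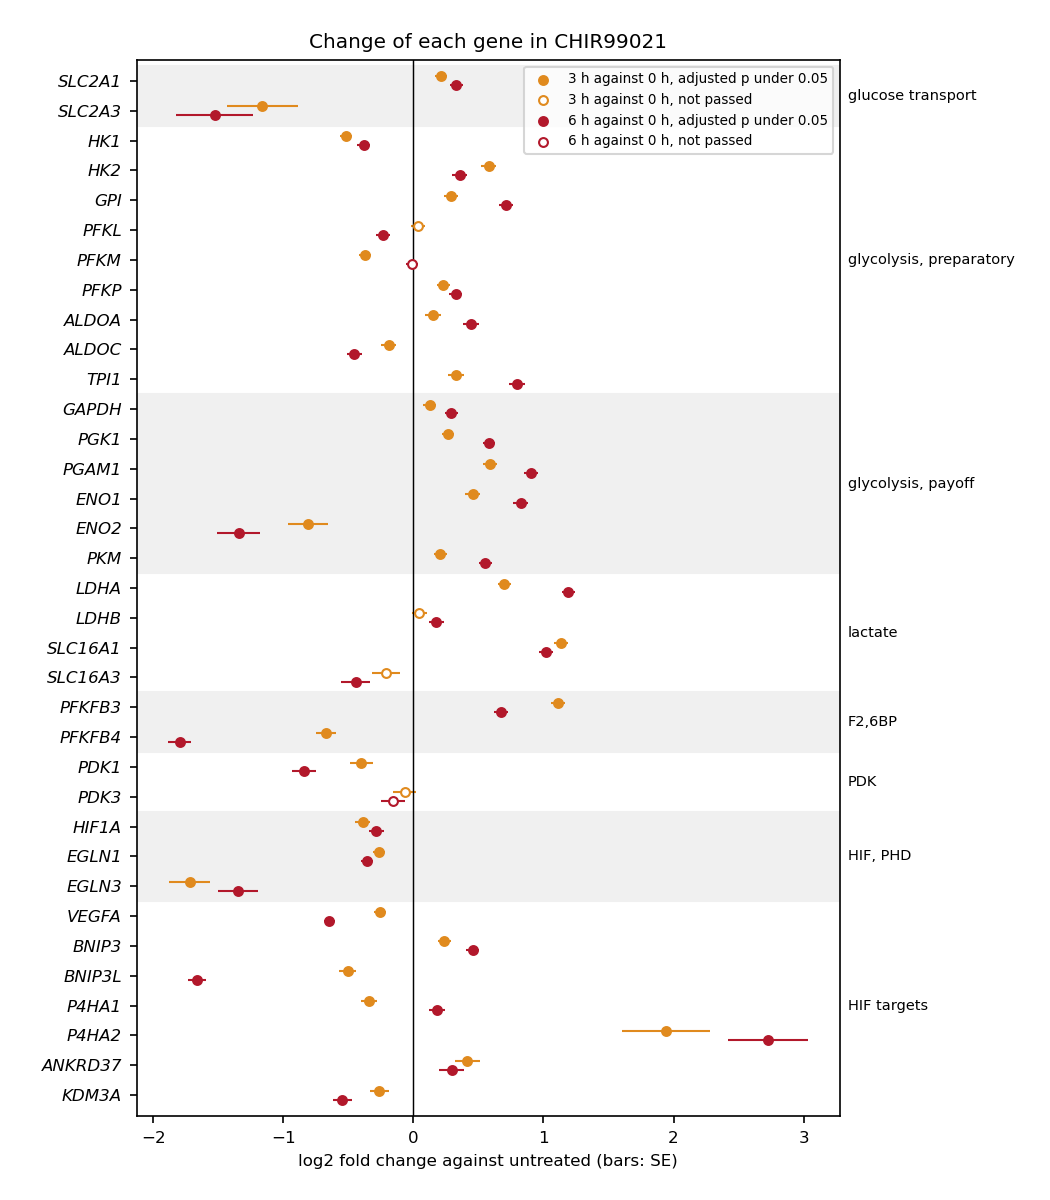
Log2 fold change of each gene against untreated at 3 h and at 6 h (x axis; bars are the SE, filled points passed the test at an adjusted p under 0.05). GPI, TPI1, PGK1, PGAM1, ENO1, PKM and LDHA are further right at 6 h than at 3 h, HK2 and PFKFB3 are further right at 3 h, and PFKFB4 and BNIP3L are further left at 6 h.

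HIF1A and both prolyl hydroxylase members fell. HIF1A, the oxygen-regulated alpha subunit, measured 132, 128 and 114 CPM at 0 h, 92.6, 96.7 and 95.5 at 3 h and 102, 98.5 and 106 at 6 h. All untreated libraries lay above all treated ones. HIF1A fell 1.31-fold at 3 h (log2 -0.39 ± 0.06, adjusted p = 4.26e-05) and 1.22-fold at 6 h (adjusted p = 0.000581), and its protein, on which HIF activity mainly depends, was not measured. EGLN1 encodes PHD2, the main prolyl hydroxylase, and fell from 72.2 ± 1.21 to 60.1 ± 2.09 and 56.5 ± 1.07 CPM. EGLN3 encodes PHD3, another prolyl hydroxylase of HIF. It measured 2.06, 1.69 and 2.00 CPM at 0 h, 0.558, 0.626 and 0.551 at 3 h and 0.702, 0.744 and 0.807 at 6 h. The treated libraries lay far below the untreated ones, by 3.29-fold at 3 h (log2 -1.72 ± 0.16, adjusted p = 3.36e-07) and 2.55-fold at 6 h (adjusted p = 2.4e-06). EGLN3 overlaps SPTSSA on the same strand, which had 27707 reads beside its 508.

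EGLN2 encodes PHD1, the remaining prolyl hydroxylase of HIF, and was counted among other genes of oxygen sensing. It rose 1.39-fold at 3 h, from 27.5 to 38.4 CPM (adjusted p = 8.01e-06), and did not pass at 6 h (log2 0.06 ± 0.06, adjusted p = 0.395). With library size alone it was lower at 6 h (log2 -0.18, adjusted p = 0.0197).

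Of 12 other genes of oxygen sensing, 9 were tested, and they moved both ways. At 3 h 5 rose and 2 fell, and at 6 h 5 rose and 2 fell (medians 0.18 and 0.24). Over all genes tested 32.8% rose and 33.5% fell at 3 h, and 35.7% and 35% at 6 h. With library size alone 3 rose and 2 fell at 3 h, and 2 rose and 4 fell at 6 h. ARNT, the partner of HIF1A, fell 1.37-fold at 6 h, and CITED2, a competitor of HIF for its coactivator, fell 1.85-fold. Parts of the VHL ubiquitin ligase, which degrades the alpha subunit, rose, with CUL2 at 1.39-fold and ELOC at 1.46-fold. VHL itself did not pass at 6 h (log2 -0.05 ± 0.07). It was lower at 6 h with upper-quartile factors (log2 -0.20, adjusted p = 0.0247) and with library size alone (-0.29, 0.0024). HIF1AN, the asparagine hydroxylase of HIF, rose 1.36-fold at 3 h and 1.21-fold at 6 h. The 6 h rise of HIF1AN did not pass with upper-quartile factors (log2 0.13, adjusted p = 0.106) or library size alone (0.04, 0.614).

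The 7 remaining members are HIF targets outside the pathway, and they split in direction. At 3 h 3 rose and 4 fell, and at 6 h 4 rose and 3 fell. All genes tested were 32.8% higher and 33.5% lower at 3 h, and 35.7% and 35% at 6 h. VEGFA, the angiogenic growth factor, fell from 122 ± 1.0 CPM to 102 ± 1.78 and 78.1 ± 2.63, 1.56-fold in all (log2 -0.64 ± 0.05, adjusted p = 1.89e-08). KDM3A, a histone demethylase, fell 1.2-fold and 1.46-fold. Both fell further between 3 h and 6 h.

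BNIP3 and BNIP3L, a pair of related mitophagy receptors, went opposite ways. BNIP3L (NIX) measured 54.6, 53.0 and 47.7 CPM at 0 h, 34.6, 37.4 and 37.3 at 3 h and 17.0, 14.9 and 17.0 at 6 h. Each step was downward with no overlap, 1.42-fold at 3 h and 3.18-fold at 6 h (log2 -1.67 ± 0.07, adjusted p = 1.09e-10). BNIP3 measured 27.4, 26.6 and 28.4 CPM at 0 h, 32.8, 31.8 and 32.7 at 3 h and 37.5, 38.2 and 37.4 at 6 h. The BNIP3 groups did not overlap, and it rose 1.18-fold and 1.37-fold (adjusted p = 1.37e-06 at 6 h). Its 3 h rise did not pass with upper-quartile factors (log2 0.08) or library size alone (0.04). Reads equal to 43.3% of those of BNIP3 were counted to its pseudogenes, of which 20 had reads. With them added the log2 rises were 0.12 at 3 h and 0.35 at 6 h, beside 0.24 and 0.45 without, and both still passed.

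P4HA1 and P4HA2 are catalytic subunits of collagen prolyl hydroxylase. P4HA1 fell 1.27-fold at 3 h and was 1.14-fold higher than untreated at 6 h (34.8 ± 1.13, 27.4 ± 1.81 and 39.5 ± 2.12 CPM). The 6 h rise (adjusted p = 0.0149) changed sign under library size alone (log2 -0.05) and did not pass with upper-quartile factors (0.04) or without 6 h replicate 11 (adjusted p = 0.0788). P4HA2 had only 6, 5 and 3 reads at 0 h, 13, 18 and 17 at 3 h and 25, 27 and 25 at 6 h. Its groups did not overlap, and it passed at 3 h (log2 1.94 ± 0.34, adjusted p = 0.000158) and 6 h (2.73 ± 0.31, adjusted p = 2.07e-06), but with so few reads the size is poorly known. Its rise between 3 h and 6 h (adjusted p = 0.017) was lost without 3 h replicate 5 (0.0680). ANKRD37, a small ankyrin repeat protein, rose 1.33-fold at 3 h, but not under library size alone (adjusted p = 0.0761). At 6 h it passed (adjusted p = 0.0162) with overlap of the libraries, and not without untreated replicate 1 or 2 or 6 h replicate 9 (0.0571 to 0.0791), nor with upper-quartile factors (0.223) or library size alone (0.626). It overlaps UFSP2 on the opposite strand, which had 17107 reads beside its 2909.

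A list of 31 further HIF targets, had 21 genes tested. At 3 h 1 rose, 12 fell and 8 did not pass, where 33.5% of all genes tested fell, and at 6 h 3 rose, 12 fell and 6 did not pass, where 35% of all genes fell. The medians were -0.31 and -0.38. MXI1, a MAX partner that opposes MYC, fell 3.82-fold at 6 h, from 28.7 to 7.51 CPM. DDIT4, an inhibitor of mTORC1 that several stress pathways induce, fell 3.43-fold, and the secreted glycoprotein STC2, also induced by stress other than hypoxia, fell 3.08-fold. ZNF395 fell 3.01-fold. FAM162A rose 1.29-fold at 6 h, but not with upper-quartile factors (log2 0.22, adjusted p = 0.0572) or library size alone (0.13, 0.224). PLOD1 was 1.58-fold lower than untreated at 3 h and 1.34-fold higher at 6 h. ERO1A, HILPDA and MIF did not pass at either time. Under library size alone ERO1A fell at 3 h and 6 h (adjusted p = 0.0255 and 0.0297), and HILPDA (0.0380) and MIF (0.0327) fell at 3 h.

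Because isozymes of a reaction are counted in the same library, their shares do not depend on the scaling of libraries. Shares were taken of reads per kilobase of annotated exon among the members alone, and they describe transcripts and not enzyme activity. LDHA took 26.9%, 27.2% and 26.0% of the LDHA and LDHB total at 0 h, 36.4%, 36.8% and 36.1% at 3 h and 42.2%, 42.5% and 42.4% at 6 h. The 3 groups were far apart compared with their spread. In reads without the length correction, the log2 ratio of LDHA to LDHB passed from -0.40 ± 0.05 to 0.25 ± 0.02 and 0.61 ± 0.01, so that LDHA was the more counted gene in treated cells. HK2 went from 59.1% ± 1.52 of the hexokinase pair to 75.6% ± 0.269 at 3 h and 70.7% ± 0.753 at 6 h. PFKFB3 went from 84.1% ± 0.753 of the PFKFB3 and PFKFB4 total to 94.8% ± 0.0521 and 96.7% ± 0.229. PFKFB2, left out of that total, stood at 93.7 CPM at 0 h beside PFKFB3 at 45.8, and at 41.5 beside 72.9 at 6 h. SLC16A1 held 95.9% ± 0.649 of the SLC16A1 and SLC16A3 pair at 0 h and 98.5% ± 0.164 at 6 h. SLC16A7, outside that pair, stood at 17.0 CPM at 0 h beside SLC16A3 at 10.6. Of the phosphofructokinases, PFKP took 44.2% ± 0.259, then 50.1% ± 0.399 and 52.2% ± 0.467, while PFKL went from 33.7% ± 0.787 to 27.0% ± 0.615 at 6 h. PDK1 went down from 47.7% ± 0.592 of the PDK1 and PDK3 total to 36.2% ± 3.06 at 6 h, and the 6 h libraries were spread from 33.0% to 39.1%. For LDHA, HK2, PFKFB3, SLC16A1, PFKP and PDK1 alike, the 6 h shares did not overlap those at 0 h.

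**Figure D3:**
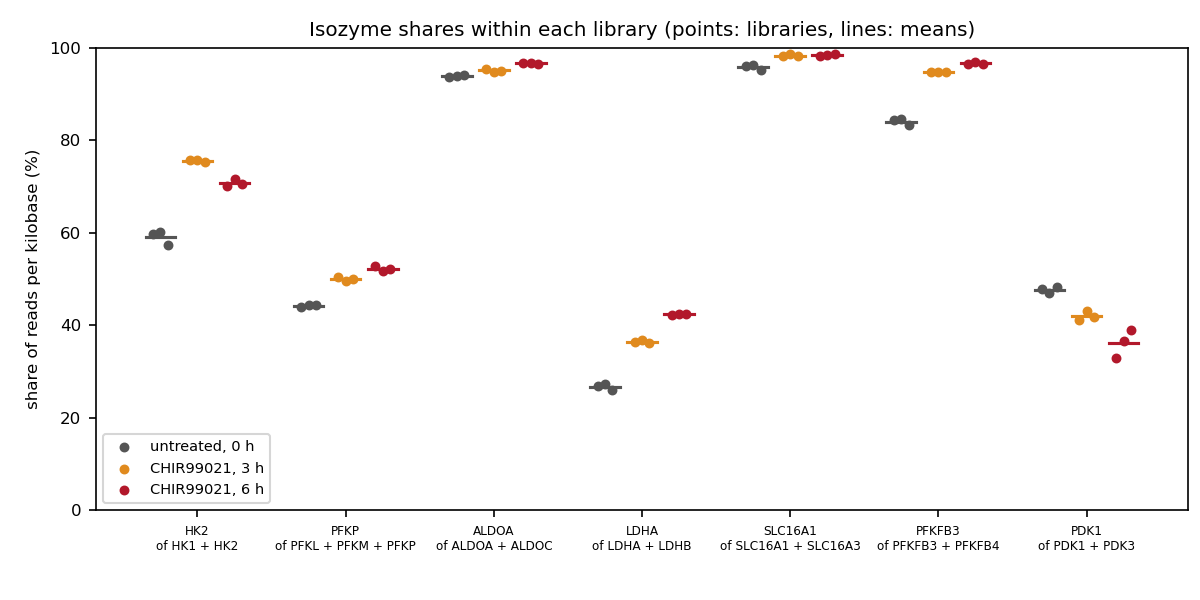
Share of 1 isozyme in the reads per kilobase of its reaction's listed genes (y axis, percent), with 1 point per library and a line at the mean of each group. Genes outside the members, such as PFKFB2, PDK2 and SLC16A7, are left out. The LDHA share goes from 26.7% to 36.4% and 42.4%, the HK2 share is highest at 3 h (75.6%), and the PDK1 share goes down to 36.2%.

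Per kilobase of exon, the order of levels among the members depends on the annotated lengths. These were 2983 bases for LDHB, 5276 for ENO1 and 8571 for PKM. In CPM, without that correction, ENO1 (1175) and PKM (1046) stood above LDHB (853) at 0 h. At 0 h GAPDH came first at 807 ± 31.6 CPM per kilobase, followed by LDHB at 286 ± 17.1, ENO1 at 223 ± 11.7 and ALDOA at 202 ± 12.3. The libraries of ENO1 and ALDOA overlapped, and so did those of each neighbour in the order PFKP, SLC2A1, GPI, SLC16A1 and PGAM1, whose means lay between 26.4 and 29.6. At 6 h ENO1 (394 ± 23.4) stood above LDHB (323 ± 22), and LDHA went from 104 ± 3.08 to 238 ± 15.2, above PKM at 179 ± 9.45. The lowest members at both times were ENO2, EGLN3, SLC2A3 and P4HA2, all under 0.336 CPM per kilobase.

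Over time, 17 of the 35 were higher at both 3 h and 6 h (27.4% of all genes tested) and 12 were lower at both (27.7%). Of the 17, 11 rose again between 3 h and 6 h: GPI, ALDOA, TPI1, GAPDH, PGK1, PGAM1, ENO1, PKM, LDHA, BNIP3 and P4HA2. Among all genes tested 4340 were higher at both times, and 1381 of those rose again (8.71% of all genes tested). Of the 12, 7 fell again between 3 h and 6 h: ALDOC, ENO2, PFKFB4, PDK1, VEGFA, BNIP3L and KDM3A. Among all genes tested 4396 were lower at both times, and 1353 of those fell again (8.54% of all genes tested). HK2 and PFKFB3 rose by 3 h and then fell back in part. SLC2A1, PFKP, SLC16A1 and ANKRD37 rose by 3 h with no passing change afterwards, and SLC2A3, HIF1A, EGLN1 and EGLN3 fell by 3 h with none. Without untreated replicate 3 the later steps of SLC2A1 (adjusted p = 0.0240), SLC16A1 (0.0278) and HIF1A (0.0391) passed. HK1 fell and recovered in part, and P4HA1 fell at 3 h and stood above untreated at 6 h.

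**Figure D4:**
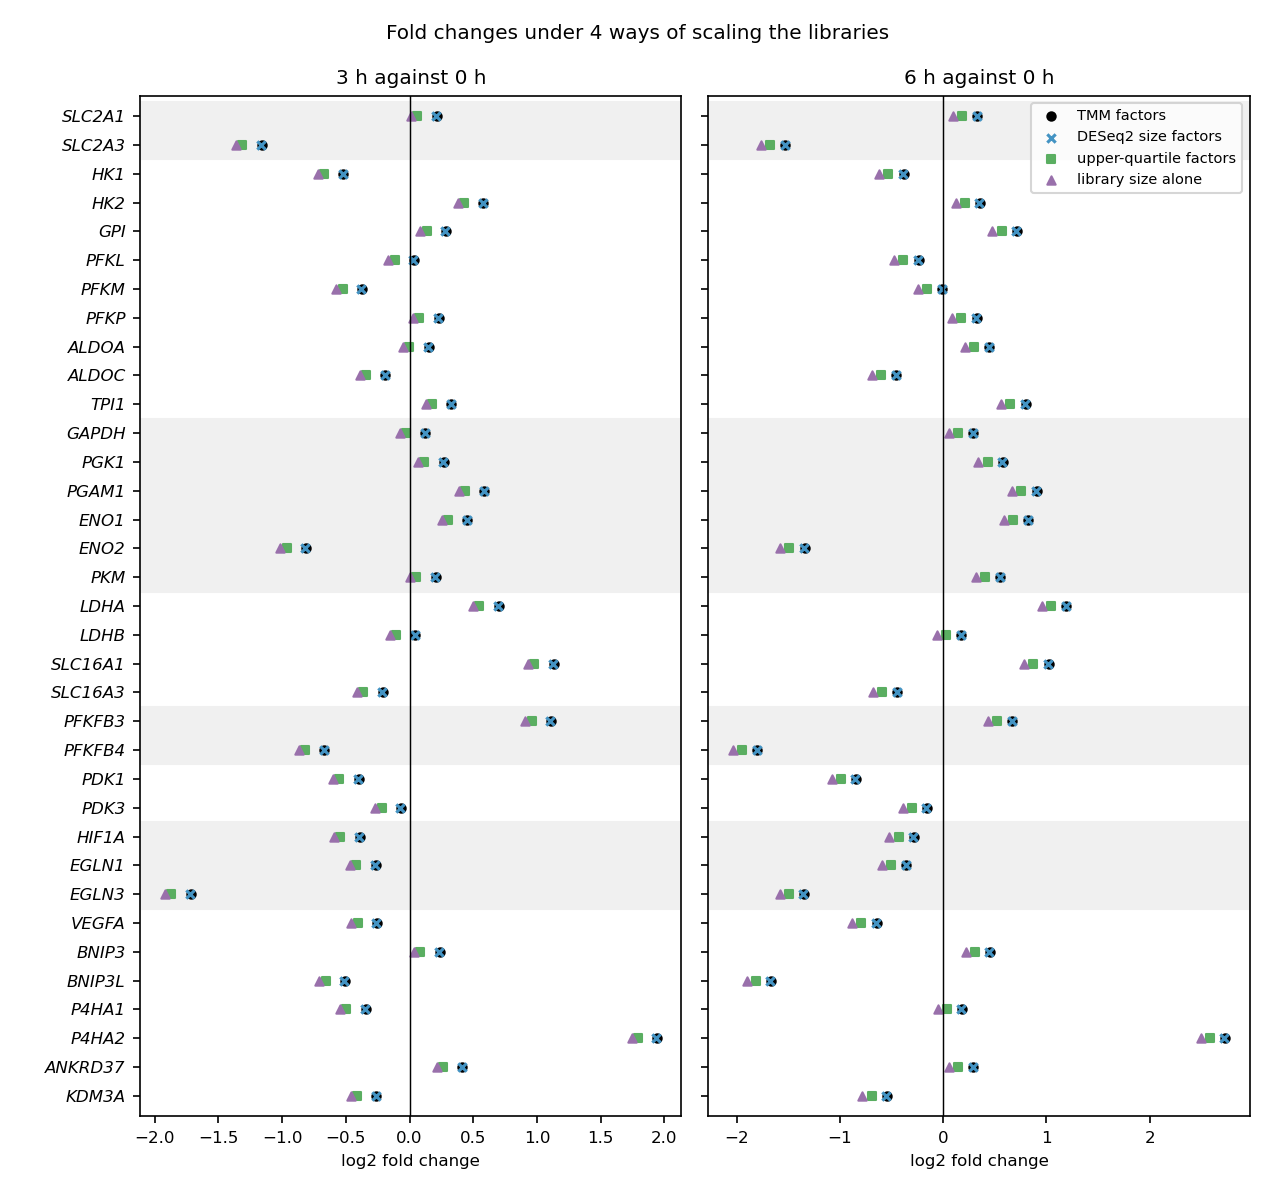
Log2 fold change against untreated of each gene under 4 ways of scaling the libraries, at 3 h (left) and 6 h (right). TMM and DESeq2 size factors coincide, upper-quartile factors and library size alone lie further left for every gene, and at 3 h ALDOA, GAPDH, PFKL and LDHB cross 0.

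Scaling of the libraries set which of the smaller rises passed. With upper-quartile factors the median over all genes moved to log2 -0.17 at 3 h and -0.13 at 6 h, and with library size alone to -0.22 at both times. The share of called genes that were higher was 49.5% at 3 h and 50.5% at 6 h with TMM, 36.0% and 39.2% with upper-quartile factors, and 31.8% and 32.8% with library size alone. Under library size alone HK2, PGAM1, ENO1, LDHA, SLC16A1, PFKFB3 and P4HA2 still rose at 3 h. At 6 h GPI, ALDOA, TPI1, PGK1, PGAM1, ENO1, PKM, LDHA, SLC16A1, PFKFB3, BNIP3 and P4HA2 still rose. The falls of PFKFB4, PDK1, HIF1A, EGLN3, VEGFA and BNIP3L were larger under both.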

How the data were processed

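RNA was sequenced from 9 libraries of Ramos cells in 3 groups of 3. The deposited values are raw read counts by Ensembl identifier, whole numbers with totals that differ between libraries. Reads were aligned with GSNAP to hg19 and counted with HTSeq 0.6.0, per the submitters' processing notes, which also list limma 3.30.0. The annotation release, strand setting and counting mode are not given in the sources used here. Members that overlap another gene or have an antisense gene in the table are therefore uncertain. Among them SLC16A3, EGLN3, ENO2, ANKRD37 and PFKM have overlapping neighbours with many reads. Overlapping antisense genes had few reads for HIF1A (8 and 12 beside 48749), ENO1 (55 beside 716044) and P4HA2 (0 beside 139). The 5 summary entries of the counter (29.1% to 32.4% of reads) were left out of library sizes and tests.

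Genes kept by filterByExpr (15847 of 28412 with any count) were fitted in R 4.3.3 with edgeR 4.0.16, with TMM factors and a robust quasi-likelihood model of a mean per group over all libraries (6 residual degrees of freedom). Mean TMM factors were 1.11 at 0 h, 0.962 at 3 h and 0.940 at 6 h. Tests were two-sided, with Benjamini-Hochberg adjustment over all genes tested. The biological coefficient of variation was 6.53%. Exon lengths came from GENCODE v29, which overstates the length of a mature transcript, and upstream sequences from RefSeq. The procedure was tested on simulated data. Alternatives were limma-voom (limma 3.58.1), DESeq2 1.42.0, other scalings and filters, a fit of the compared groups only, a tested minimum fold of 1.2, pseudogene reads added, and each library left out. The rule named every member, with library values for those changed at least 2-fold against 0 h and for GAPDH, LDHA, HIF1A, SLC2A1 and PDK1, and up to 4 genes of each other list with the smallest p at 6 h. Library values of HK2 and BNIP3, and other genes outside the members (such as BSG, BPGM, ENO3, PFKFB2, VHL, HIF1AN, EGLN2, PLOD1 and MPC2), were chosen after their values were seen. The members, the lists and the genes named were chosen with earlier results of these data known.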

Additional observations from a re-analysis of the deposited data

How the results depend on the processing

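Over the alternatives, 1851 of 1989 member values kept their direction and side of the threshold, 99 lost their call, 24 gained one and 15 reversed. Reversals were small changes. With upper-quartile factors at 3 h, PFKL went to log2 -0.12, ALDOA to -0.0052, GAPDH to -0.029 and LDHB to -0.11. With library size alone at 3 h, PFKL went to -0.17, ALDOA to -0.054, GAPDH to -0.078 and LDHB to -0.16, and at 6 h LDHB and P4HA1 went to -0.060 and -0.053. PFKL at 3 h was -0.0091 with a filter of 1 CPM, and -0.0013 (without untreated replicate 1) to 0.068 (without untreated replicate 3) with a library left out. PFKM at 6 h was 0.0062 with no filter, and -0.032 (without untreated replicate 3) to 0.013 (without 6 h replicate 10) with a library left out, at 0.0035 without 6 h replicate 9. Of these reversals PFKL (adjusted p = 0.00953) and LDHB (0.0193) at 3 h passed the test, both under library size alone.

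At 3 h the members higher numbered 11 with upper-quartile factors and 7 with library size alone, against 17, and at 6 h 12 with library size alone, against 19. Members higher at both times numbered 10 and 6, against 17. A tested minimum fold of 1.2 left 16 at 3 h (8 higher, 8 lower) and 9 between 3 h and 6 h (5 higher, 4 lower), with 7 higher and 6 lower at both times. With each library left out in turn, 29 to 32 members passed at 3 h, 31 to 34 at 6 h, 21 to 28 between 3 h and 6 h and 33 to 35 in the test of any difference, while 14 to 17 were higher and 12 to 13 lower at both times. Leaving out a library ended the calls of ALDOA and GAPDH at 3 h, LDHB, ANKRD37 and P4HA1 at 6 h and HK1, ENO2 and P4HA2 between 3 h and 6 h.

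With pseudogene reads added, LDHA took 27.8%, 37.8% and 43.8% of its pair at 0 h, 3 h and 6 h and LDHB 72.2%, 62.2% and 56.2%. HK2 took 76.5% at 3 h and 71.7% at 6 h and HK1 23.5% and 28.3%, and SLC2A1 99.8% at both times, with SLC2A3 at 0.192% and 0.164%. Apart from the reversals that scaling itself builds in, the cause of these differences was not tested. No paired analysis was possible because the replicate numbers differ between the groups. Depth limits P4HA2, SLC2A3, ENO2 and EGLN3.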

Other observations

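Beside the counts below, 32.8% of all genes tested rose and 33.5% fell at 3 h, and 35.7% rose and 35% fell at 6 h. Of 7 pentose phosphate genes, 3 rose and 2 fell at 3 h, and 3 rose and 1 fell at 6 h (medians log2 0.10 and 0.14). At 3 h 2 rose and 3 fell both with upper-quartile factors (median -0.06) and with library size alone (-0.11). At 6 h 3 rose and 1 fell with upper-quartile factors (-0.01), and 3 rose and 3 fell with library size alone (-0.10). RPIA, which makes the ribose phosphate of nucleotides, rose 1.77-fold at 6 h from 65.5 to 116 CPM, and PGD and RPE rose 1.34-fold each. PGLS fell 1.39-fold. Of 10 genes of mitochondrial pyruvate entry, 5 rose and 0 fell at 3 h, and 5 rose and 3 fell at 6 h (medians 0.22 and 0.22). With upper-quartile factors 5 rose and 4 fell at each time. The carrier subunit MPC1 rose 2.13-fold at 6 h, whereas its partner MPC2 fell 1.11-fold. The pyruvate dehydrogenase subunits DLAT and PDHA1 rose 1.82-fold and 1.36-fold, and the phosphatases PDP1 and PDP2, which reverse the action of the kinases, fell 1.25-fold and 1.31-fold.

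Of 7 gluconeogenesis genes, 4 were tested. At 3 h 0 rose and 2 fell, and at 6 h 0 rose and 3 fell, where 33.5% and 35% of all genes tested fell. PCK2, the mitochondrial enzyme that makes phosphoenolpyruvate, fell 3.65-fold at 6 h from 245 to 67.2 CPM (log2 -1.87 ± 0.06, edgeR adjusted p = 9.44e-12). G6PC1, glucose phosphatase, fell 2.82-fold from a low level of 1.19 CPM. Of the glucose-sensing MondoA list of 5 genes, 4 matched and 2 were tested. MLX, the partner of MondoA, rose 1.38-fold at 6 h, and MLXIP, which encodes MondoA, rose 1.29-fold at 3 h and did not pass at 6 h (1.08-fold). The 3 h rise of MLXIP did not pass under library size alone (log2 0.16, adjusted p = 0.0627).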
